A study of Mus musculus with 3 samples.

Results

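Proteasome genes were examined in sieved renal corpuscles of adult mice, the structures in which blood is filtered. Members were all genes whose platform symbol begins with Psm, then one letter from a to g, then a digit, and 50 of the 19938 genes with a value met this rule. By role they fell into 5 interferon-inducible members (Psmb8, Psmb9, Psmb10, Psme1 and Psme2), 31 constitutive subunits of the 20S core and the 19S particle, and 14 others, which are activators, assembly chaperones, an inhibitor, tissue-restricted forms and 2 genes that share the name pattern without being subunits (Psmc3ip and Psme3ip1). The samples were 3 pools of about 2 kidneys each from males of the outbred CD-1 stock, wild-type and aged 7 to 9 weeks. Minced kidneys were digested with collagenase A (0.5%, 15 minutes, 37 °C) and filtered at 100, 70 and 40 µm, and the RNA was amplified in 1 round with a NuGEN whole-transcript kit and hybridized to Affymetrix mouse gene arrays. Because sorting was not used, each pool could hold any corpuscle cell type and tubule fragments carried through the filters. The 3 samples form 1 group, replicates 1, 2 and 3, and the design implies no comparison of conditions.

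The proteasome is the barrel-shaped protease that degrades ubiquitin-tagged proteins in every nucleated cell. Its 20S core is a stack of rings of alpha and beta subunits, and the 19S particle caps the core, recognizes ubiquitin, unfolds the substrate with its ATPase ring and feeds it in. Interferon, above all interferon gamma, induces Psmb9, Psmb10 and Psmb8, which replace the catalytic subunits Psmb6, Psmb7 and Psmb5 in newly assembled cores to form the immunoproteasome, and also Psme1 and Psme2, the subunits of the activator PA28. The immunoproteasome cuts peptides that suit display on class I molecules, and it is abundant in immune cells and present at lower levels in many other tissues.

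The promoters of the genes on which the comparison below turns are shown first, because interferon and stress factors bind known short elements there. Each run is the 250 bases before the start of the gene in RefSeq, build GRCm38.p6, read 5′ to 3′ on the gene's strand, and capitals mark a match to 1 of the 3 motifs given below. The window is chr17:34197945-34198194 on the plus strand for Psmb8, chr17:34187331-34187580 on the minus strand for Psmb9, and chr14:54617996-54618245 on the minus strand for Psmb5.
Psmb8: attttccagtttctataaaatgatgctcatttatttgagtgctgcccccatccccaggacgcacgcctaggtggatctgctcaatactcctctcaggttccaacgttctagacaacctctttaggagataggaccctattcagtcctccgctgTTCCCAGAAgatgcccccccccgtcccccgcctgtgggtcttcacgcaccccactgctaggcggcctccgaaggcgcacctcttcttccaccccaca
Psmb9: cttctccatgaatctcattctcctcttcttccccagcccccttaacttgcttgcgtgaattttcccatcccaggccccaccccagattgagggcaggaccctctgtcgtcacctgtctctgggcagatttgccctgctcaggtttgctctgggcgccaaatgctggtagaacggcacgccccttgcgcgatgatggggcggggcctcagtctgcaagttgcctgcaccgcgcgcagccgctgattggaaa
Psmb5: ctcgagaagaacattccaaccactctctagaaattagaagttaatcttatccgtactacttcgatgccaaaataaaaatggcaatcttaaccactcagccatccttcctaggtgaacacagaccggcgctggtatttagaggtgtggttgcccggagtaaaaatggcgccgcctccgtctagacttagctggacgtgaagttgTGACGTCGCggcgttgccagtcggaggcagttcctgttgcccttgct

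The 3 motifs were GAAA, any 2 bases and GAAA, the interferon-stimulated response element bound by IRF and STAT complexes, TTCNNNGAA, the gamma-activated site bound by STAT dimers, and TGACNNNGC, the antioxidant response element bound by Nfe2l1 and Nfe2l2. Both strands were searched in windows of 250 bases before to 50 bases after each start. RefSeq windows were found for 42 of the 50 members, and the other 8 were not searched. These 42 members had 46 windows, and a match in any window counted for the gene. The shares of all windows are by single window, so the units differ. The gamma-activated site was matched in the windows of 3 of 42 members, Psmb8, Psmd2 and Psmg1, and in 8.3% of all 32851 windows. In Psmb8 the match began 97 bases before the start. The interferon-stimulated response element was matched in those of 5 of 42 members, of which Psme1 was the 1 inducible gene, and in 3.44% of all windows. The element TGACNNNGC was matched in those of 6 of 42 members, with 0 of 5 inducible members and 4 of 25 constitutive subunits (Psmb5, Psmb6, Psmc6 and Psmd12), and in 12.4% of all windows. The Psmb5 match began 47 bases before the start. No match overlapped another, and the window of Psmb9 held none of the 3 motifs. These matches describe letters in a window and are no evidence of binding. The starts of Psmb9 and Tap1, which encodes a subunit of the peptide transporter of class I presentation, lie back to back with 225 bases between them, so that 275 bases of their windows are shared.

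Across the arrays the median log2 signal was 7.11, 7.11 and 7.09 on replicates 1, 2 and 3. Background, taken as the 95th percentile of 1212 olfactory and vomeronasal receptor probe sets, was 6.90, 6.96 and 6.92. The tissue label was borne out by its markers. All 4 podocyte, 6 endothelial and 4 mesangial genes with a value were detected above background, with Podxl at 12.33 on every array and Emcn at 12.86, 12.84 and 12.86. All 5 proximal tubule genes were also detected, at a median of 1.01 log2 above background. The highest of them, Kap, had 10.47, 10.78 and 10.58, or 3.68 log2 above background. Also detected were 5 of 9 macrophage and dendritic genes and 1 of 6 T, B and NK genes. The share of all genes was 58.9%, so the macrophage count is near the background. In such bulk samples, fewer cells of a type and less RNA per cell cannot be told apart.

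Nearly the whole proteasome was expressed in the renal corpuscle. Of the 50 members 48 were detected above background (one-sided limma test, adjusted p under 0.05 over all genes), against 58.9% of all 19938 genes. All 5 inducible members and all 31 constitutive subunits were among them. Where a gene held 1 value on all arrays, its own variance in this test came only from the 3 backgrounds. The adjusted p is then no measure of replicate error. Without a test, a raw signal over 150 on every array was reached by 48 of 50 members and 10229 of 19938 genes. The median level above background was 3.35 log2 over all 50 members, against 0.37 over all genes and 1.29 over the 11752 detected genes. It was 2.95 for the inducible members, 3.78 for the constitutive subunits and 1.47 for the others. A raw signal over 1000 on all 3 arrays was reached by 29 of 50 members, 25 of them constitutive subunits, and by 1514 of 19938 genes. Probe sets differ in affinity, so the levels place each gene against background and do not rank one gene against another.

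The undetected members were the subunits known for expression in a single tissue. Psma8, the alpha subunit of spermatogenic cells, had log2 signals of 6.87, 6.86 and 6.87. Psmb11, the catalytic subunit of the thymic cortex, stood at 6.59 on every array. Both lay below background on all arrays. The member just inside the threshold was Psmc3ip, a meiotic recombination factor, with 7.44, 7.44 and 7.46. It was lost when background was set at the 99th percentile of the receptors, which left 47 members and 41.7% of all genes.

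**Figure D1:**
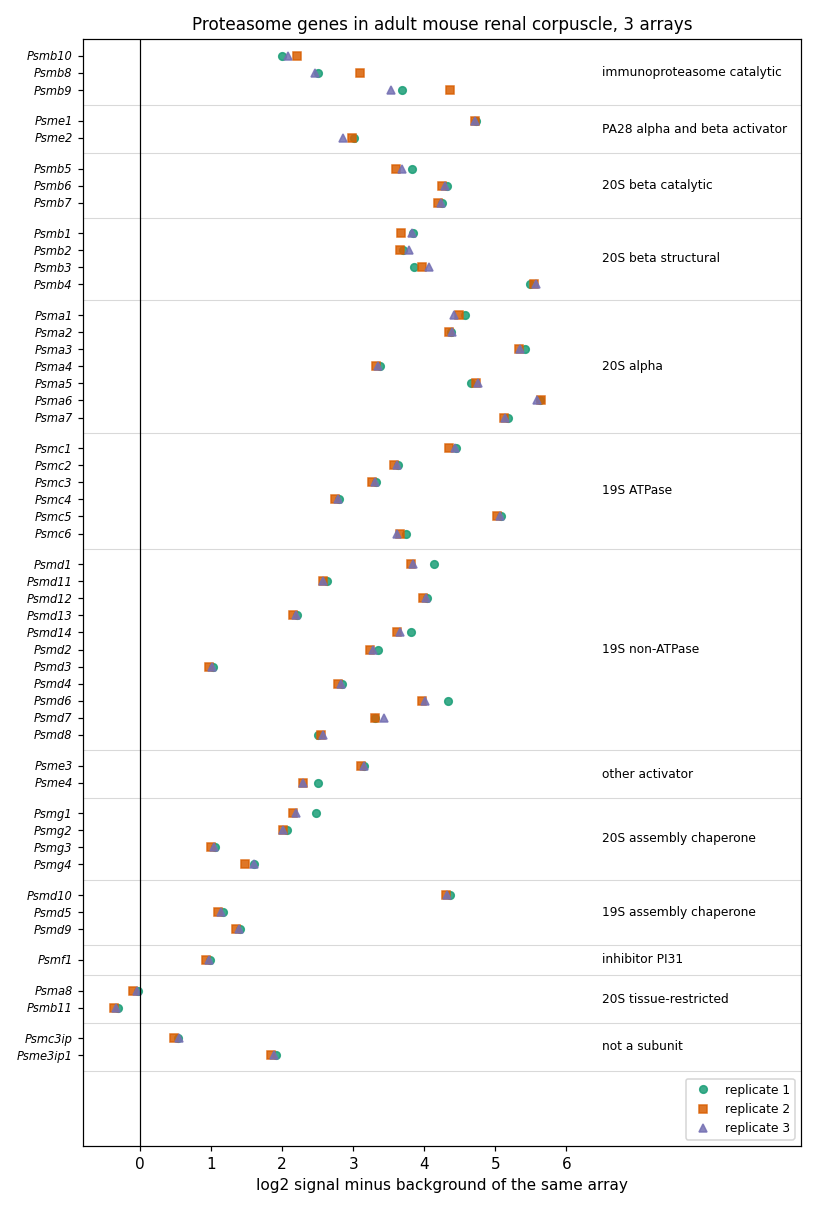
Log2 signal minus the background of the same array (horizontal axis) for each of the 50 proteasome genes, grouped by role, with 1 symbol per array; the vertical line at 0 is background. All genes but Psma8 and Psmb11 lie to the right of the line, and identical signals appear slightly apart because background was 6.90, 6.96 and 6.92 on the 3 arrays.

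The 7 alpha subunits, which form the outer rings of the core and gate its channel, were 3.34 to 5.61 log2 above background. Psma6 was at the upper end, with log2 signals of 12.52, 12.59 and 12.50. Psma4 was at the lower end, with 10.27, 10.27 and 10.26. Within this class no member differed by more than 0.14 log2 between any arrays, so the 3 preparations gave nearly the same signal for the outer rings.

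The non-catalytic beta subunits Psmb1, Psmb2, Psmb3 and Psmb4 lay 3.72 to 5.53 log2 above background. Psmb4 gave 12.38, 12.50 and 12.48, and Psmb2 gave 10.60, 10.61 and 10.71. Psmb3 had the widest spread of the 4, with 10.76, 10.92 and 10.98, or 1.17-fold between its extremes. Its second probe set gave 10.22, 10.47 and 10.43, and both probe sets were lowest on replicate 1.

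Of the constitutive catalytic subunits, Psmb6, the caspase-like beta1, had a log2 signal of 11.21 on every array. Psmb7, the trypsin-like beta2, had 11.15 on every array after rounding. Psmb5, the chymotrypsin-like beta5 and the target of the inhibitor bortezomib, had 10.72, 10.55 and 10.60, a spread of 1.13-fold with replicate 1 highest. These 3 genes are the partners against which the immunoproteasome subunits are set below.

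The 6 ATPases Psmc1 to Psmc6, which form the unfolding ring of the 19S particle, lay 2.77 to 5.06 log2 above background. Psmc5 stood at 11.98 and Psmc4 at 9.70 on all arrays. In all, 4 of the 6 held 1 value on the 3 arrays, and the class as a whole spread by no more than 1.07-fold.

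The 11 other 19S subunits bind and deubiquitinate substrates or build the lid and its scaffold, and they lay 1.01 to 4.10 log2 above background. Psmd3, a lid subunit, was at the lower end with 7.93 on every array. Psmd6, another lid subunit, was at the upper end and had 11.23, 10.92 and 10.92. Psmd1, the large scaffold subunit of the base, had 11.04, 10.77 and 10.75. Both genes were highest on replicate 1, by 1.23-fold and 1.22-fold over the lowest array, while replicates 2 and 3 were within 1.01-fold of each other. These were the largest spreads among the 31 constitutive subunits.

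Among the alternative activators, Psme3, the nuclear PA28 gamma, gave 10.05, 10.07 and 10.07, and Psme4, the activator PA200, gave 9.40, 9.25 and 9.22. The core assembly chaperones Psmg1 to Psmg4 lay 1.03 to 2.27 log2 above background. Psmg1 had 9.37, 9.11 and 9.11, a difference of 0.26 log2 that fell just short of the 1.2-fold limit used below (0.263 log2), and Psmg3 had 7.95 on every array. Of the 19S assembly chaperones, Psmd10, known as gankyrin, had 11.26, 11.26 and 11.23, and Psmd5 had 8.06, 8.05 and 8.06. The inhibitor Psmf1, or PI31, had 7.89 on every array, and Psme3ip1, which binds Psme3, had 8.81 on every array.

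The inducible catalytic subunits were all expressed, and all were highest on replicate 2. Psmb9 (beta1i) had log2 signals of 10.58, 11.31 and 10.45 on replicates 1, 2 and 3 (10.78 ± 0.46, SD, n = 3), or raw signals of 1533, 2541 and 1396. Replicate 2 was thus 1.66-fold above replicate 1 and 1.82-fold above replicate 3, whereas replicates 1 and 3 differed by 0.13 log2. Psmb8 (beta5i) had 9.40, 10.05 and 9.38 (9.61 ± 0.38, SD, n = 3), or raw signals of 675, 1059 and 665. For Psmb8 replicate 2 was 1.57-fold above replicate 1 and 1.59-fold above replicate 3, and replicates 1 and 3 differed by 1.02-fold. Psmb10 (beta2i) had 8.90, 9.16 and 9.00 (9.02 ± 0.13, SD, n = 3). Its replicate 2 was 0.26 log2 above replicate 1, just under the 1.2-fold limit, and 0.16 log2 above replicate 3.

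The subunits of the activator PA28 had a smaller spread than the 3 catalytic subunits. Psme1 (PA28 alpha) had 11.62, 11.67 and 11.62, a spread of 1.04-fold. Psme2 (PA28 beta) had 9.91, 9.94 and 9.77, a spread of 1.13-fold, and here the low array was replicate 3, with replicates 1 and 2 differing by 1.02-fold. All 5 inducible members were highest on replicate 2, against 3 of 31 constitutive subunits and 1670 of 19938 genes. For Psmb10, Psme1 and Psme2 this order rests on differences within the spread of the constitutive subunits.

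Set against the gene's own 3-array mean, the median deviation of the 5 inducible members was -0.12, 0.14 and -0.10 log2 on replicates 1, 2 and 3, and that of the 31 constitutive subunits was 0.00 on each. The constitutive median is held at 0 by tied signals, since 9 of the 31 held the same value on all 3 arrays. Over the 11 constitutive subunits with 3 different signals it was -0.01, 0.02 and -0.02. The mean deviation, which ties do not fix, was -0.10, 0.24 and -0.14 for the inducible members and 0.01, -0.01 and 0.00 for the constitutive subunits. Over the 3 inducible catalytic subunits alone the median was 0.44 on replicate 2. With replicate 2 left out, the median of the 5 inducible members on replicate 1 was 0.01, and on replicate 3 it was -0.01. With 2 arrays these values mirror each other, so they show only that replicates 1 and 3 were close. The excess on replicate 2 is that of 1 pool. Without replicate 1 the median on replicate 2 was 0.09. With 3 samples of 1 group these deviations allow no test.

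**Figure D2:**
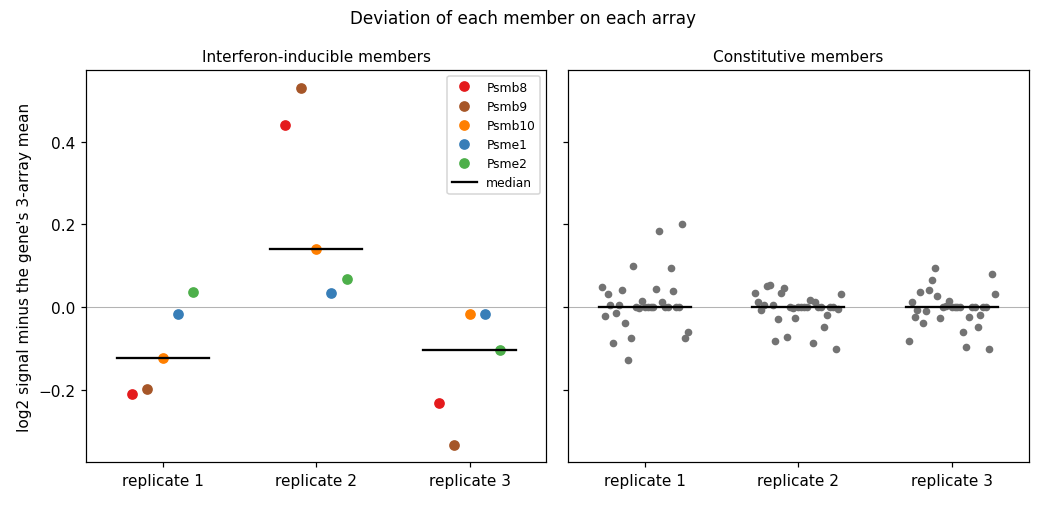
Log2 signal minus the gene's 3-array mean (vertical axis) on replicates 1, 2 and 3 for the 5 interferon-inducible members (left) and the 31 constitutive subunits (right), 1 point per gene and a bar at the median. Psmb9 and Psmb8 stand at 0.53 and 0.44 on replicate 2, while the constitutive medians are 0.00 on every array.

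Each inducible catalytic subunit was also set against the subunit it replaces. Psmb9 minus Psmb6, relative to the 3-array mean of that difference, was -0.20, 0.53 and -0.33 log2. For Psmb8 minus Psmb5 the values were -0.31, 0.51 and -0.21, and for Psmb10 minus Psmb7 they were -0.12, 0.14 and -0.02. The difference between the highest and the lowest array was 0.86 log2 for the beta1 pair, 0.82 log2 for the beta5 pair and 0.26 log2 for the beta2 pair. In all 3 pairs replicate 2 was highest, and for the beta5 pair Psmb5 added to the difference, being lowest on the array where Psmb8 was highest.

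Of the 50 members 4 were more than 1.2-fold apart between any 2 arrays, against 6.75% of all genes, a share near the background. They were Psmb8 and Psmb9, which were highest on replicate 2, and Psmd1 and Psmd6, which were highest on replicate 1. More than 1.2-fold higher on replicate 2 than on both other arrays were 2 of 50 members, Psmb8 and Psmb9, against 0.908% of all genes. A spread at least as wide as that of Psmb9 was found for 0.416% of all genes, and one as wide as that of Psmb8 for 0.823%. For Psmd6 and Psmd1 the same shares were 5.13% and 5.89%. At a limit of 1.1-fold 12 members were counted, and at 1.5-fold Psmb8 and Psmb9 were left. The share of all genes was not counted at these other limits, so these counts have no background beside them.

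**Figure D3:**
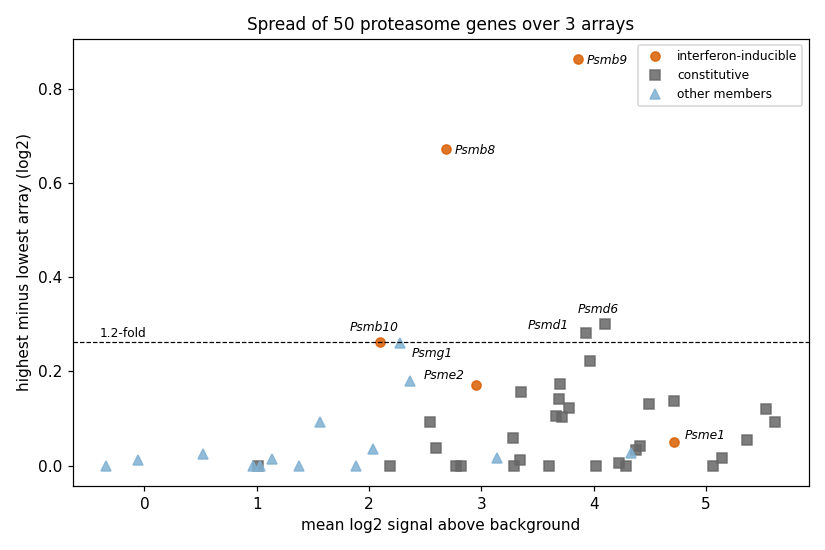
Log2 difference between the highest and the lowest of the 3 arrays (vertical axis) against the mean log2 signal above background (horizontal axis) for the 50 members, with the 1.2-fold limit dashed. Psmb9 and Psmb8 stand at 0.86 and 0.67, apart from the other 48 members, which reach at most 0.30.

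The genes around the inducible members on chromosomes 17 and 14 were then examined, while those around Psmb10 were not. H2-DMb2 and H2-DMb1, which precede Psmb9, had no value, so that side could not be read. On chromosome 17, within the major histocompatibility complex, Psmb9, Tap1, Psmb8 and Tap2 follow each other in the RefSeq order. All 4 were highest on replicate 2. Tap1 had log2 signals of 7.42, 7.77 and 7.27, and Tap2, the other transporter subunit, had 7.83, 8.13 and 7.97. The next genes, H2-Ob and H2-Ab1 of class II presentation, had 7.02 on every array and 7.87, 7.81 and 7.83, so the excess on replicate 2 was not seen in them. On chromosome 14 Psme1 and Psme2 are separated by Emc9, which had 8.06 on every array. Rnf31, after Psme2, had 8.23 on every array, and the gene after it, Irf9, a subunit of the interferon-activated ISGF3 complex, had 8.27, 8.98 and 8.33.

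**Figure D4:**
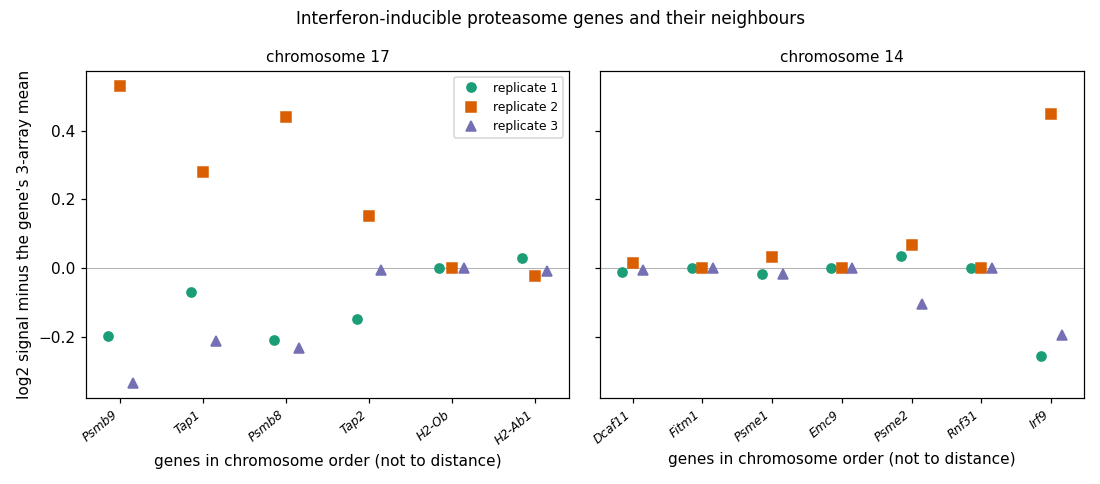
Log2 signal minus the gene's 3-array mean (vertical axis) for Psmb9, Psmb8, Psme1, Psme2 and neighbouring genes with a value. Genes are in chromosome order without distances, with 1 symbol per array, and Psmb10 is not shown. On chromosome 17 replicate 2 lies highest at Psmb9, Tap1, Psmb8 and Tap2, and on chromosome 14 it lies highest by the widest margin at Irf9, at 0.45.

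The partners of the proteasome, such as its assembly factors, receptors and transcription factors, were detected for 15 of 15 list genes with a value. This compares with 58.9% of all genes, and the list median was 2.91 log2 above background. Pomp, the maturation factor of new cores, had 12.03, 12.06 and 12.06, and Sem1, a small lid subunit outside the Psm naming, had 12.23, 12.23 and 12.34. Nfe2l1, the factor that raises proteasome genes when the proteasome is inhibited, had 10.95, 10.91 and 10.99, and Nfe2l2, the oxidative stress factor, had 10.14 on every array. Only Ngly1, the deglycosylase that activates Nfe2l1, was over 1.2-fold apart between 2 arrays, with 9.63, 9.43 and 9.33. The list as a whole had a median deviation of 0.00 on each array, as did all genes, and tied signals hold it there. Its mean deviation was 0.02, -0.01 and -0.02 on replicates 1, 2 and 3.

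Genes of class I antigen presentation were mixed. All 12 with a value were detected, against 58.9% of all genes, at a median of 1.95 log2 above background. Highest on replicate 2 were 6 of 12, against 1670 of 19938 genes. The 6 include Nlrc5, whose replicate 2 was only 0.0009 log2 above replicate 3. B2m, the light chain of class I molecules, had 12.97, 13.25 and 12.96. Tapbp, or tapasin, had 8.27, 8.96 and 8.71. Tap1 and B2m were the 2 of 12 that were over 1.2-fold above both other arrays on replicate 2, against the 0.908% of all genes given above. H2-Q5, a class Ib gene, went the other way, with 9.86, 7.46 and 9.66, and Canx, H2-Q4 and Tapbpl held 1 value on all arrays. Nlrc5, the transactivator of class I genes, had 10.20, 10.29 and 10.28, within 1.06-fold.

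The interferon response list was higher on replicate 2 as a group. This list was drawn up with earlier results of these arrays known and is no independent evidence of its direction. Of its 28 genes with a value 24 were detected, 24 were highest on replicate 2 and 22 were over 1.2-fold above both other arrays there, against 58.9%, 1670 of 19938 and 0.908% of all genes. Irf7, the factor that amplifies the type I interferon response, had log2 signals of 7.36, 9.28 and 7.36. Ifit1, an interferon-induced RNA-binding protein, had 8.53, 10.40 and 8.39, and Stat2, which pairs with Irf9 in ISGF3, had 8.64, 9.58 and 8.43. On replicate 2 the deviation was 0.53 for Psmb9 and 0.44 for Psmb8, beside a median of 0.60 for the list, whose medians on replicates 1 and 3 were -0.19 and -0.42. Irf1, a factor that drives Psmb9 under interferon gamma, had 7.45, 7.45 and 7.37, and Irf8 held 1 value on all arrays. Other genes known for their response to interferon gamma differed among themselves. Iigp1, Irgm1, Gbp3 and Gbp7, GTPases of cell defence, were 2.92-fold, 2.66-fold, 2.11-fold and 1.61-fold higher on replicate 2 than on replicate 1, whereas the chemokine gene Cxcl9 and the class II transactivator Ciita were undetected.

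Immune cells carry much immunoproteasome, so their markers are given beside these values. The summed raw signal on replicates 1, 2 and 3 was 6800, 8420 and 6600 for the 5 inducible members and 66859, 66664 and 66265 for the 31 constitutive subunits. That of the 9 macrophage and dendritic genes was 2135, 2445 and 1782. Of the 9 genes 3 were highest on replicate 2, against 1670 of 19938 genes. They were Tyrobp with 9.01, 9.52 and 8.71, Lyz2 with 8.98, 9.20 and 8.31, and Csf1r by 1.07-fold. The leukocyte gene Ptprc had 8.64, 8.64 and 8.35, and Cd68, which was also detected, had 7.73 on every array. C1qa, C1qb, Adgre1 and Itgax, which mark resident macrophages and dendritic cells, were undetected. The summed signal of the T, B and NK genes was 642 on replicate 1, 642 on replicate 2 and 643 on replicate 3. Only 1 of these 6 genes was detected, so this sum is mostly background signal and does not compare such cells between pools. That of the proximal tubule genes was 2408, 2864 and 2631, and that of the endothelial genes was 18897, 17733 and 18082. The part of each of these cell types in the excess of Psmb8 and Psmb9 on replicate 2 was not tested.

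**Figure D5:**
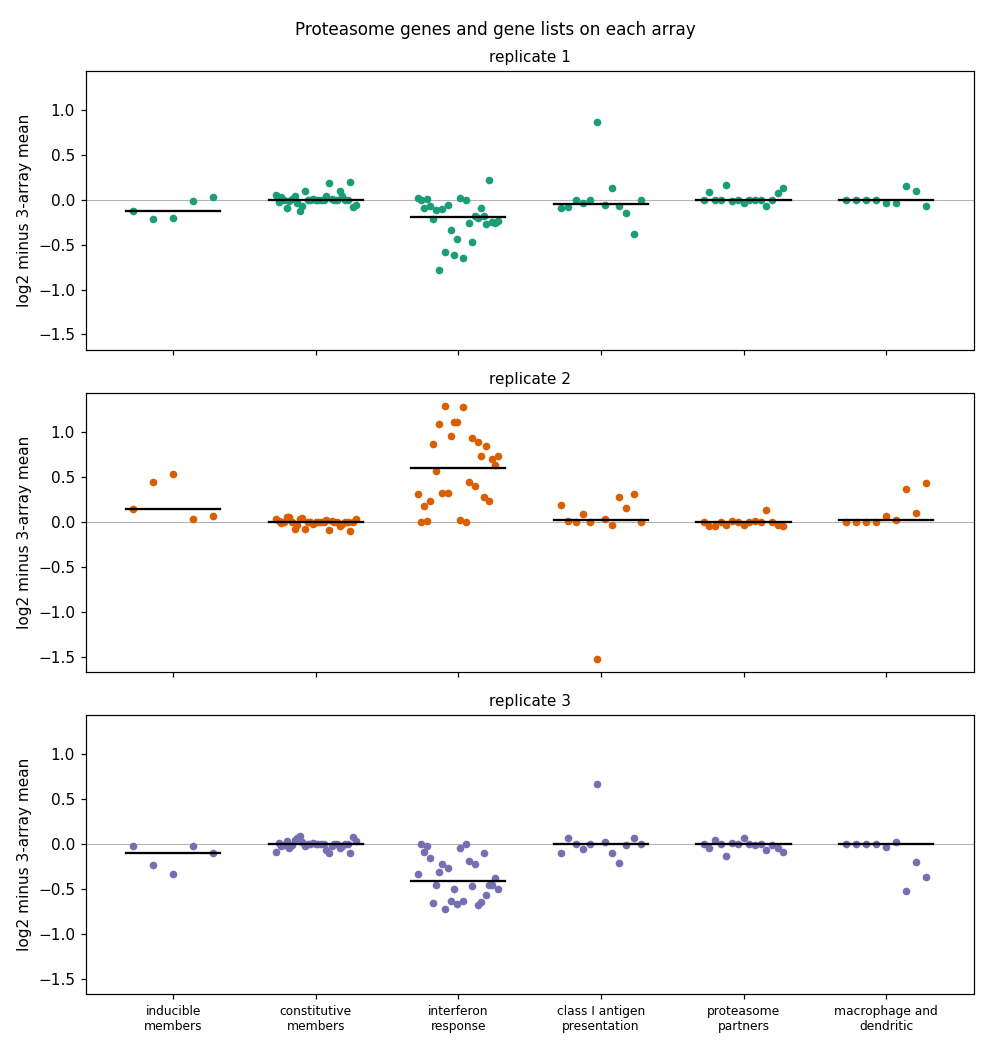
Log2 signal minus the gene's 3-array mean (vertical axis) on replicates 1, 2 and 3 (top to bottom) for the inducible members, the constitutive subunits and 4 gene lists, 1 point per gene and a bar at the median. On replicate 2 the medians are 0.14 for the inducible members, 0.00 for the constitutive subunits and 0.60 for the interferon response list, and the single low point among class I genes is H2-Q5.

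Many members gave 1 value on more than 1 array, so their SD is not their error. All 3 arrays held the same value for 14 of 50 members (28.0%), all of them outside the inducible set, against 54.2% of all genes. All 3 arrays differed for 4 of 5 inducible members and 11 of 31 constitutive subunits. The median SD was 0.13 log2 for the inducible members, against 0.03 for the constitutive subunits, and the ties may hold the second value down. Several probe sets were present for 5 members, and for these the 6 probe sets not used spread over the 3 arrays by no more than 0.25 log2. Their levels were lower, such as 10.23, 10.34 and 10.38 for Psma5 against 11.55, 11.69 and 11.67 for the one used. The highest array could also differ. For Psma5 it was replicate 2 in the probe set used and replicate 3 in the other, and for Psmb3 the reverse. The ranges given by class and the highest arrays therefore hold for the probe sets used.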

How the data were processed

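Total RNA of 3 renal corpuscle pools was measured on Affymetrix mouse gene arrays, 1 array per pool. The authors deposited 1 table of log2 signals for 35557 probe sets. Affymetrix Expression Console, with no version, is named in the submitters' processing notes. The summary method and settings of this table are not given in the sources used here. No further normalization was applied, and raw signals are 2 to the power of the log2 value. Precision is limited by the number of arrays.

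The platform annotation names 1 gene for 21789 probe sets, several for 1621 and none here for 12147. Only probe sets with 1 symbol were used, and a gene took its probe set with the highest mean log2 signal. A probe set that named Psme2 with another gene was left out. Member symbols were checked against RefSeq and 0 had changed.

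Detection was a one-sided limma test (lmFit with an intercept, eBayes with a trend) of the log2 signal minus the background of its array, over all 19938 genes, with a Benjamini-Hochberg adjusted p under 0.05. It was tested on simulated data. The simulated signals held no ties, unlike these data, so this does not show how the test handles tied signals. Because of tied values no p of a single gene is printed. Spread was counted by folds of 1.2 with no test. Values on each array are given for the inducible catalytic and PA28 genes, their partners, undetected members, members over 1.2-fold apart and the highest and lowest of each class. Members and lists were chosen with earlier results of these data known, and a few other members and list genes were named after their values were seen. Separate litters or days are not stated in the labels, and the spread over the 3 pools may in part be technical. Alternatives were other backgrounds, quantile normalization, median centring, the mean over probe sets, other fold limits and leaving out each array. Tools were R 4.3.3, limma 3.58.1, Python 3.11.15, pandas 2.3.3, numpy 2.4.6 and matplotlib 3.10.9.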

Additional observations from a re-analysis of the deposited data

How the results depend on the processing

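Of 67 alternatives, 62 kept the values within the spread between replicates, or the counts within 1.5 times, of those reported. For the inducible members this spread was a median SD of 0.13 log2, about as large as their deviations, so the limit is loose. Within it, their deviation on replicate 3 went from -0.1041 to -0.0108 without replicate 2. The constitutive medians were held near 0 by tied signals, so their staying within the limit says little. Each inducible member had only 1 probe set in use, so the mean over probe sets could not change their deviations. The exceptions were as follows. Without 1 array, the median deviation of the inducible members on replicate 1 lay between -0.1311 and 0.0108 log2, the higher value without replicate 2, and their difference from the constitutive subunits on replicate 1 had the same range, -0.1311 to 0.0108. With the 3 inducible catalytic subunits alone, the deviation on replicate 2 was 0.44. At 1.1-fold 12 members were apart between 2 arrays and at 1.5-fold 2, against 4 at 1.2-fold. The share of all genes was counted at the 1.2-fold limit only. Detection of members ranged from 47 to 50 over the backgrounds tried, while that of all genes ranged from 41.7% to 90.4%. No paired analysis was possible because there is only 1 group. With 3 arrays, tied signals and no second condition, the data give the level of each member above background but no error for its difference between arrays.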
